A study of Mus musculus with 9 samples.

Results

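Immediate early genes are genes that a resting cell can switch on from transcription factors already present, without making new protein first. The 35 members described here are transcription factors and short-lived regulators of that kind: the FOS, JUN, ATF3 and small MAF proteins, the EGR, NR4A and KLF zinc-finger and nuclear receptor factors, MYC, SRF, the IER proteins, the RNA-binding ZFP36 proteins, and a set of secreted or signalling products that are induced with them. They were chosen by name, from the gene names printed in the scanner files of replicate 1, with Cyr61 standing for the gene now called Ccn1 and Ctgf for Ccn2. All 35 have a probe on the array, out of 27617 genes or unnamed features that it carries, and 34 of them could be measured, out of 16736 features that could be measured in all. The member without a measurement, Nr4a3, encodes an orphan nuclear receptor, and its probe was well above background on 0 of 3 X-3 arrays, 1 of 3 X-1 arrays and 0 of 3 control arrays.

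Mouse 3T3-L1 preadipocytes, a fibroblast-like line that can be turned into fat cells, were grown in medium with 10% fetal bovine serum and then kept without serum for 48 h. They received X-3 at 70 µM, X-1 at 70 µM, or no compound (the control group, labelled untreated, for which the labels name no vehicle), and RNA was taken 24 h later. Each of the 3 groups has 3 arrays, numbered 1 to 3, and each array measured total RNA labelled with a single dye, Cy3. The design text counts the arrays as separate experiments but does not say which dishes or passages they came from, so p-values measure the spread between these arrays. The series title calls the compounds derivatives of mangiferin, and X-1 and X-3 are known here only by these code names, so no structure can be set beside their readouts. The labels name no treated time other than 24 h, so the values show what stood at that time and not the rise of the first hours. The cells are 1 established line, and RNA came from the whole culture, so that a change in the share of cells expressing a gene and a change in the RNA per cell cannot be told apart.

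In the textbook picture, growth factors, serum and many kinds of stress act through MAP kinases, ternary complex factors bound to SRF, and CREB to start transcription of these genes within minutes, and the response is short because ZFP36 proteins and unstable mRNAs end it. FOS and JUN proteins pair through leucine zippers to form AP-1, ATF3 and the small MAF proteins join or compete with such pairs, and EGR and KLF factors bind GC-rich DNA. In preadipocytes a brief burst of several of these factors, among them EGR2 and KLF proteins, is known from the start of fat cell differentiation, while sustained MYC is known to hold it back.

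As examples, the 250 bases before the annotated start of 5 chosen members are printed below in the direction of transcription, from RefSeq on GRCm38.p6. Where a member has several listed starts, the one with the most motifs is shown. The 5 windows are therefore not a picture of the typical member. Atf3 (chr1:191183334-191183583, minus strand), Fos (chr12:85473640-85473889, plus strand) and Maff (chr15:79347270-79347519, plus strand, at 1 of its 3 listed starts) are among the members with the largest differences from control, and Srf (chr17:46556163-46556412, minus strand) and Egr2 (chr10:67537619-67537868, plus strand, at 1 of its 5 listed starts) are among those that did not pass the test in either compound. Capitals mark the motifs that were searched on both strands: the cyclic AMP response element TGACGTCA (CRE), its core TGACGT, which the full element contains on each strand, the AP-1 site TGANTCA, the EGR site GCGNGGGCG, and the CArG box that SRF binds.
Atf3: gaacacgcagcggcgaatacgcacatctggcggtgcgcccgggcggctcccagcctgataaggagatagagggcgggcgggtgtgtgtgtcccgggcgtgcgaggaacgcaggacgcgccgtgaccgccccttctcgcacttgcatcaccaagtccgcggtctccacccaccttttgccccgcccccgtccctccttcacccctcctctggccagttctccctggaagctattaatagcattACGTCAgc
Fos: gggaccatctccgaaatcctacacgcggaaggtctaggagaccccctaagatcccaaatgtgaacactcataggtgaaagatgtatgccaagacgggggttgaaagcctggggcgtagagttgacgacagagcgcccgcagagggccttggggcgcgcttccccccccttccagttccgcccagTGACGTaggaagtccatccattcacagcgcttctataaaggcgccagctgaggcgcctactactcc
Maff: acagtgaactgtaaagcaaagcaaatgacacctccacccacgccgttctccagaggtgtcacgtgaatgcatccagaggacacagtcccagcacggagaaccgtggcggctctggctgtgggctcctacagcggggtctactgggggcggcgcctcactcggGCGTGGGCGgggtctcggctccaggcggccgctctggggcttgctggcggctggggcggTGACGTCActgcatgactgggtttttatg
Srf: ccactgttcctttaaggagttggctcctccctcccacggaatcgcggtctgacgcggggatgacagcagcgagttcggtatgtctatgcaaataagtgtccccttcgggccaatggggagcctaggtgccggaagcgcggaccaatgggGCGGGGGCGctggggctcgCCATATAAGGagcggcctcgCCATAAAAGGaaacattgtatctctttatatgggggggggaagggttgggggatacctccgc
Egr2: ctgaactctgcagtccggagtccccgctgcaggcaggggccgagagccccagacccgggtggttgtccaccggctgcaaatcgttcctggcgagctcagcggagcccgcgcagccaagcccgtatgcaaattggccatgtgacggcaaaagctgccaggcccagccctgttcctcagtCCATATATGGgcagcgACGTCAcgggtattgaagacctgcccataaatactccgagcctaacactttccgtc
The Atf3 window holds a CRE core that begins 8 bases before the start, and the Fos window holds one that begins 66 bases before it. In the Maff window a full CRE begins 29 bases before the start and an EGR site begins 88 bases before it. The windows of the other Maff starts held none of the motifs. Srf has 2 CArG boxes, beginning 82 and 62 bases before the start, behind an EGR site at 101 bases, and Egr2 has a CArG box at 72 bases and a CRE core at 56 bases. RefSeq promoters were matched for 25 of the 35 members. Those not matched were Arc, Ctgf, Egr1, Egr3, Fosl1, Gem, Ier2, Klf10, Myc and Zfp36l2. Of those matched, Gdf15, Ier3, Ier5, Jun, Junb, Jund, Klf6 and Rhob had none of the motifs. An EGR site was found before at least 1 start of 10 of the 25 members (Fosb, Fosl2, Klf2, Maff, Mafk, Nr4a1, Nr4a2, Plaur, Srf and Zfp36), against 4.70% of all 32851 promoters of that length. A CRE core was found for 7 members (Atf3, Btg1, Cyr61, Egr2, Fos, Maff and Nr4a3) against 6.47% of all promoters, and the full CRE for Maff against 1.55%. The CArG box was found for 3 members (Egr2, Srf and Zfp36) against 1.47% of all promoters, and the AP-1 site for 2 (Plaur and Zfp36l1) against 6.75%. Some members have several starts, and any of them could count, while the background counts each start once. These matches describe letters in the window and say nothing of binding in these cells.

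Signals are given as log2 intensity minus the 75th percentile of all gene spots on the same array, so that a probe at 0 was as bright as that percentile, and one probe's level cannot be set against another's. On the 9 arrays 57.9% to 67.1% of spots were well above background, no spot was saturated, and the number of arrays, 3 in a group, limits the precision. Replicate numbers are slides: slide 1 was scanned apart from slides 2 and 3 with another version of the extraction software and no spike-in signal, and on every slide the X-3, X-1 and control samples had positions 3, 2 and 1, which leaves group and position impossible to tell apart. X-3 replicate 1 stood apart from the other 8 arrays on the second principal component (10.9% of the variance), and where leaving it out changes a call, that is said beside the member or the comparison. All 12 genes of a list of fibroblast and preadipocyte markers, the cell type the labels give, were measured.

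Most of the measured members were higher than control in both compounds, and none was called lower. In X-3, 26 of the 34 measured members were higher (76.5%) and 0 were lower, against 29.3% of all 16736 features called higher and 26.4% called lower. In X-1, 30 of 34 were higher (88.2%) and 0 were lower, against 28.2% of all features called higher and 28.3% called lower. Arc, counted as higher in both, was kept only through the treated arrays. A call means an adjusted p under 0.05 in limma, fitted over all features on the 9 arrays with Benjamini-Hochberg adjustment, and all p-values and standard errors below come from that fit. The median log2 difference over the measured members was 1.54 in X-3, against 0.06 over all features, and 1.78 in X-1, against 0.06. In X-3 24 members were called with a difference of at least 2-fold, against 27.1% of all features, and in X-1 25 were, against 29.9%. Both comparisons use the same 3 control arrays, so their counts are not independent of each other. Without X-3 replicate 1, 27 members were called higher in X-3, the added one being Klf6, and 2, Gem and Plaur, were called lower, and the X-1 counts stayed at 30 and 0. Of all 16736 features, 5434 were then higher and 5089 lower in X-3, and 5569 higher and 5360 lower in X-1. Every one of the 26 and 30 calls had the same sign on all 3 slides taken alone. The calls were made from these same arrays, and no share over all called features was worked out. The agreement of sign is therefore not further support for them. The median over members on slides 1, 2 and 3 was 1.63, 1.49 and 1.60 in X-3, and 1.60, 1.88 and 1.76 in X-1.

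**Figure D1:**
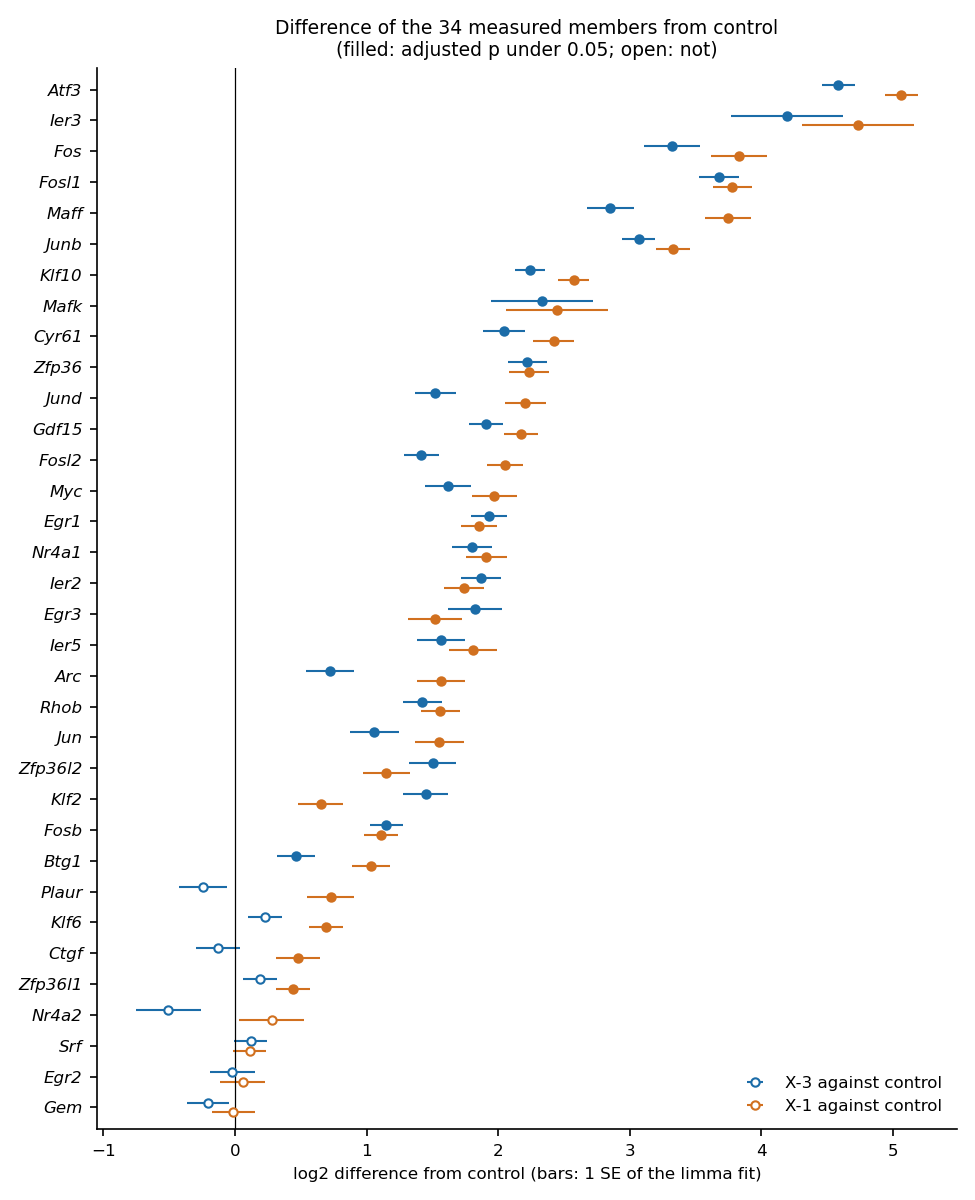
Log2 difference from control of each measured member in X-3 (blue) and X-1 (orange), with bars of 1 standard error of the limma fit over 9 arrays, ordered by the larger of the 2 differences. Filled points passed an adjusted p of 0.05, and Srf, Egr2, Gem and Nr4a2 have open points in both compounds.

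How the arrays are put on one scale moves these differences. With each array scaled to its own median, the middle of all features shifted by -0.23 in X-3 and -0.22 in X-1, and 24 members were higher and 1, Nr4a2, was lower in X-3, while 26 were higher and 0 lower in X-1. Of all 16736 features, 3047 were then called higher and 5006 lower in X-3, and 3106 higher and 5246 lower in X-1. Spike-in RNA, present on slides 2 and 3 only, shifted the middle of all features by -0.72 in X-3 and -0.90 in X-1. On that scale 20 members were higher and 6 lower in X-3 (Ctgf, Egr2, Gem, Nr4a2, Plaur and Srf), and 22 were higher and 3 lower in X-1 (Egr2, Gem and Srf). Of all 16736 features, 1820 were then called higher and 8344 lower in X-3, and 1518 higher and 9911 lower in X-1. The lower calls on the spike-in scale are therefore not a result about these members. Changes are therefore given relative to the bulk of the spots on each array.

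The FOS, JUN, ATF and MAF proteins, which make up AP-1 and its partners, held 5 of the 6 members with the largest difference from control in each compound. All 10 of these members rose in both compounds, and none changed sign under any scaling, although the Fosb calls and the Jun call in X-3 were lost with spike-in scaling. Atf3, a stress-induced factor of the CREB family that can pair with JUN, had the largest difference of any measured member in both compounds. Its signal was 2.45, 2.62 and 2.76 in X-3 cells, 3.03, 3.17 and 3.08 in X-1 cells and -2.08, -1.85 and -1.99 in control cells. All 6 treated arrays lay above all control arrays, and the X-1 arrays lay above the X-3 arrays. The difference from control was 4.58 ± 0.13 in X-3 (adjusted p = 1.18e-07) and 5.06 ± 0.13 in X-1 (adjusted p = 5.95e-08), which is 24.0-fold in X-3 and 33.5-fold in X-1 on the linear scale.

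Fos, the founding partner of JUN in AP-1, read 0.48, -0.38 and -0.14 in X-3 cells, 0.45, 0.63 and 0.42 in X-1 cells and -3.17, -3.49 and -3.33 in control cells. It rose 9.98-fold in X-3 (log2 difference 3.32 ± 0.21, adjusted p = 3.32e-06) and 14.2-fold in X-1 (3.83 ± 0.21, adjusted p = 1.21e-06). Replicate 1 of X-3 lay among the X-1 arrays and the other two X-3 arrays lay below them. The Fos probe is spotted 10 times on each array, and the standard deviation between its spots was 0.04 to 0.15 log2 units. Fosl1, which encodes FRA-1, a FOS protein without a strong activation domain, read 2.53, 2.36 and 2.23 in X-3 cells, 2.72, 2.41 and 2.29 in X-1 cells and -1.46, -1.21 and -1.25 in control cells. Its difference was 3.68 ± 0.15 in X-3 (adjusted p = 4.4e-07) and 3.78 ± 0.15 in X-1 (adjusted p = 2.94e-07), and the ranges of the compounds overlapped.

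Fosl2, which encodes FRA-2, read 2.00, 1.69 and 1.76 in X-3 cells, 2.41, 2.44 and 2.51 in X-1 cells and 0.60, 0.27 and 0.33 in control cells. The difference was 1.42 ± 0.13 in X-3 (adjusted p = 3.08e-05) and 2.05 ± 0.13 in X-1 (adjusted p = 2.88e-06), and the 3 groups did not overlap. Fosb, another FOS protein, had a smaller difference, 1.15 in X-3 and 1.11 in X-1 (adjusted p = 7.54e-05 and 7.96e-05).

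Among the JUN proteins, Junb, which can restrain JUN, read 7.44, 7.20 and 7.18 in X-3 cells, 7.46, 7.54 and 7.60 in X-1 cells and 4.37, 4.18 and 4.07 in control cells. It rose by 3.07 ± 0.13 in X-3 (adjusted p = 4.91e-07) and 3.33 ± 0.13 in X-1 (adjusted p = 2.79e-07). Its second probe, whose start lies 38 bases away, gave 2.93 in X-3 and 3.14 in X-1. Jund, the JUN protein that many resting cells already contain, read 6.46, 6.63 and 6.85 in X-3 cells, 7.07, 7.50 and 7.43 in X-1 cells and 5.05, 5.22 and 5.12 in control cells. Its difference was 1.52 ± 0.16 in X-3 (adjusted p = 4.65e-05) and 2.21 ± 0.16 in X-1 (adjusted p = 4.29e-06), and X-3 lay below X-1 on every slide. Jun itself rose least of the 3, by 1.06 in X-3 (adjusted p = 0.00122) and 1.55 in X-1 (adjusted p = 0.000107). The Jun probe has 8 to 10 usable spots on an array, with a standard deviation between them of 0.03 to 0.10.

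The small MAF proteins have a leucine zipper but no activation domain, and partner NRF and BACH factors. Maff read 4.24, 3.73 and 3.80 in X-3 cells, 4.52, 4.99 and 4.94 in X-1 cells and 1.06, 1.09 and 1.05 in control cells. The control arrays lay close together, and the difference was 2.85 ± 0.18 in X-3 (adjusted p = 2.8e-06) and 3.75 ± 0.18 in X-1 (adjusted p = 5.98e-07). Mafk read 1.30, 0.65 and 0.84 in X-3 cells, 1.71, 0.57 and 0.86 in X-1 cells and -0.61, -1.89 and -1.70 in control cells. Its replicate 1 lay above the other two in every group, and its standard error was among the widest of the members: 2.33 ± 0.39 in X-3 (adjusted p = 0.000873) and 2.45 ± 0.39 in X-1 (adjusted p = 0.000592).

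**Figure D2:**
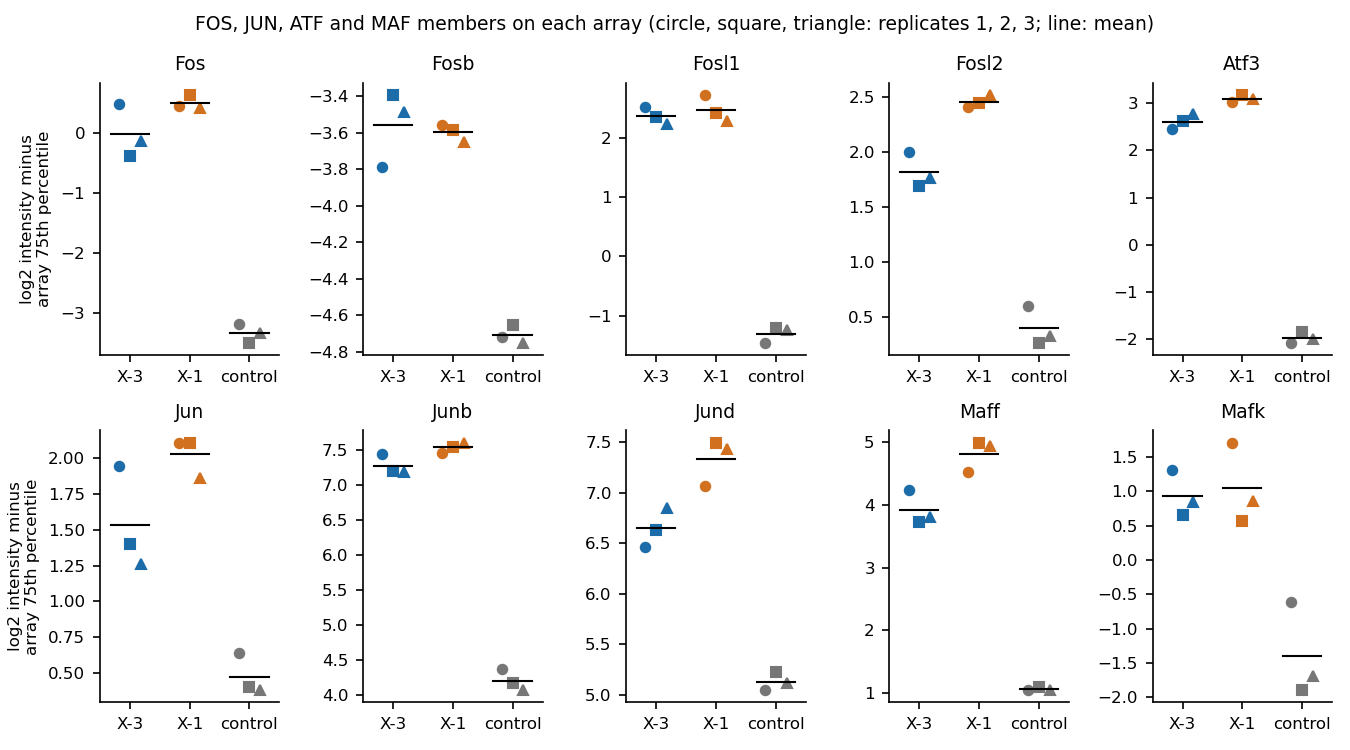
Log2 intensity minus the array's 75th percentile for 10 leucine zipper members on each array, in X-3, X-1 and control, with a line at each group's mean and a separate y axis for each gene. For all 10 genes the 6 treated arrays lie above the 3 control arrays, and for Fosl2, Junb, Jund, Maff and Atf3 the X-3 arrays lie wholly below the X-1 arrays.

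The EGR factors, zinc-finger proteins that growth signals induce through SRF, did not all move. Egr1 rose by 1.93 ± 0.14 in X-3 and 1.86 ± 0.14 in X-1 (adjusted p = 5.89e-06 and 5.57e-06). Egr3 rose by 1.82 in X-3 and 1.52 in X-1 (adjusted p = 8.67e-05 and 0.000224). Egr2, a factor known to promote fat cell differentiation, read 0.85, 0.28 and 0.29 in X-3 cells, 0.37, 0.59 and 0.69 in X-1 cells and 0.53, 0.48 and 0.47 in control cells. The treated arrays overlapped the control arrays, and the difference was -0.02 ± 0.17 in X-3 (adjusted p = 0.932) and 0.06 ± 0.17 in X-1 (adjusted p = 0.787). With spike-in scaling, on slides 2 and 3, Egr2 was called lower, at -0.90 in X-3 and -0.74 in X-1. Its 10 spots per array had a standard deviation of 0.03 to 0.07, and the X-3 array of replicate 1 stood above the other two X-3 arrays.

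**Figure D3:**
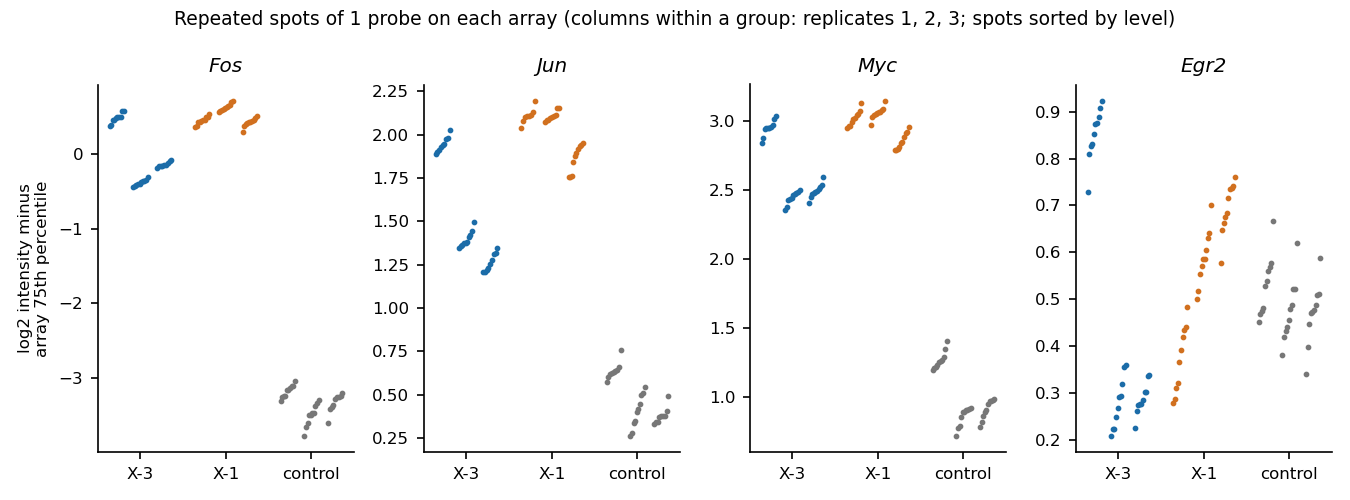
Each spot of the Fos, Jun, Myc and Egr2 probes that are printed 10 times on the array, as log2 intensity minus the array's 75th percentile, in X-3, X-1 and control, with replicates 1 to 3 from left to right in each group and a separate y axis for each gene. Spots of one array lie close together, with a standard deviation of at most 0.15, while X-3 replicate 1 lies above the other X-3 arrays for all 4 genes.

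Egr3 has 2 probes, and only one was well above background. The kept probe starts 3152 bases further along the plus strand of chromosome 14 than the other (mm9, chr14:70481979-70482038 against chr14:70478827-70478886), and the other was well above background on 0 of 9 arrays. The first 30 of their 60 bases are shown to tell the kept probe from the dark one.
Egr3 kept probe: tgcactctaacttatgtgaactgagagaaa
Egr3 dark probe: tccttccaactggtgccaggacaacatcat
The value of Egr3 thus rests on 1 probe, which the array annotates with a cDNA clone and not with the RefSeq transcript.

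The NR4A proteins are orphan nuclear receptors that act without a known ligand in most settings. Nr4a1, also called Nur77, rose by 1.80 in X-3 and 1.91 in X-1 (adjusted p = 1.72e-05 and 9.77e-06). Nr4a2, also called Nurr1, read -1.79, -0.86 and -0.87 in X-3 cells, -0.27, -0.28 and -0.62 in X-1 cells and -0.55, -0.67 and -0.78 in control cells. The 3 X-3 arrays were the lowest, replicate 1 by the most, and neither difference from control passed the test: -0.51 ± 0.24 in X-3 (adjusted p = 0.109) and 0.28 ± 0.24 in X-1 (adjusted p = 0.359). With each array scaled to its own median, Nr4a2 was called lower in X-3 (-0.73, adjusted p = 0.0141). Without X-3 replicate 1 it was not called in X-3 against control.

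Myc, the growth-promoting factor of the basic helix-loop-helix family, rose by 1.62 ± 0.17 in X-3 and 1.97 ± 0.17 in X-1 (adjusted p = 6.22e-05 and 1.6e-05). Its 3 probes gave 1.62, 1.64 and 1.09 in X-3, and 1.97, 2.05 and 1.63 in X-1, so each was higher than control in both compounds.

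SRF, which binds CArG boxes and switches on FOS and EGR genes with its cofactors, is encoded by a gene that is itself an immediate early gene. Srf read 2.42, 2.30 and 2.08 in X-3 cells, 2.22, 2.34 and 2.21 in X-1 cells and 2.07, 2.24 and 2.12 in control cells. The groups overlapped and the difference was 0.12 ± 0.12 in X-3 (adjusted p = 0.439) and 0.11 ± 0.12 in X-1 (adjusted p = 0.468). Gem, a small GTP-binding protein that limits calcium channels, read 1.34, 0.83 and 0.86 in X-3 cells, 1.00, 1.31 and 1.30 in X-1 cells and 1.23, 1.19 and 1.22 in control cells. Its difference was -0.20 ± 0.16 in X-3 (adjusted p = 0.309) and -0.01 ± 0.16 in X-1 (adjusted p = 0.954), with the array of replicate 1 above the other two in X-3. Without that array Gem was called lower in X-3 (-0.37, adjusted p = 0.0290).

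Of the 3 KLF members, Klf10, a TGF-beta-inducible repressor, had the largest difference. It read 4.95, 4.71 and 4.82 in X-3 cells, 5.10, 5.16 and 5.22 in X-1 cells and 2.70, 2.49 and 2.57 in control cells, and rose by 2.24 ± 0.12 in X-3 (adjusted p = 1.36e-06) and 2.57 ± 0.12 in X-1 (adjusted p = 5.22e-07). Klf2, which represses Pparg in preadipocytes, read 3.55, 3.53 and 3.80 in X-3 cells, 3.02, 2.65 and 2.81 in X-1 cells and 1.91, 2.15 and 2.47 in control cells on the brighter of its probes. Its difference was 1.45 ± 0.17 in X-3 (adjusted p = 0.000117) and 0.65 ± 0.17 in X-1 (adjusted p = 0.0101), and X-3 lay above X-1 on every slide. Klf6, a factor of the same family, read 3.35, 3.67 and 3.56 in X-3 cells, 3.84, 4.03 and 4.10 in X-1 cells and 3.23, 3.28 and 3.39 in control cells. It was called higher in X-1 and not in X-3: 0.23 ± 0.13 in X-3 (adjusted p = 0.16) and 0.69 ± 0.13 in X-1 (adjusted p = 0.0016). Klf6 was called higher in X-3 as well without X-3 replicate 1 (0.32, adjusted p = 0.0463) and on replicates 2 and 3 alone (0.28, adjusted p = 0.0347). With spike-in scaling neither Klf2 nor Klf6 was called in either compound. The Klf2 difference was then 0.64 in X-3 (adjusted p = 0.0588) and -0.49 in X-1, and the Klf6 difference was -0.43 in X-3 and -0.18 in X-1.

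The 2 Klf2 probes did not give the same order of the compounds. The array design places the brighter probe at chr8:74843761-74843820 and the other at chr8:74845137-74845196 (mm9, plus strand), 1376 bases further on, and assigns both to the same RefSeq transcript. An mm9 gene annotation was not used here, so neither is placed in an exon or UTR. The first 30 of their 60 bases are shown because the direction of X-3 against X-1 depends on which is read.
Klf2 brighter probe: acacgccgccgctcagccccgacggccccc
Klf2 other probe: tgtatataagactatgaccgattgtatttc
The other probe read 2.24, 1.51 and 1.61 in X-3 cells, 2.55, 2.59 and 2.39 in X-1 cells and 2.03, 1.64 and 1.59 in control cells. The difference from control in X-3 was 1.45 on the brighter probe and 0.03 on the other. In X-1 it was 0.65 on the brighter probe and 0.75 on the other. X-3 minus X-1 was 0.80 on the brighter probe and -0.72 on the other, where the adjusted p over all probes was 0.0281 and 0.0683. With the mean of both probes the difference between the compounds was 0.04 and was not called.

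Klf6 and Plaur also had probes that differed in sign in X-3. The other Klf6 probe read 1.54, 2.82 and 2.73 in X-3 cells, 3.24, 3.27 and 3.39 in X-1 cells and 2.48, 2.31 and 2.54 in control cells, with the X-3 array of replicate 1 lowest of all 9. Its difference was -0.08 in X-3 and 0.86 in X-1, against 0.23 and 0.69 on the brighter probe. Ier2, a nuclear regulator, read 3.46, 3.19 and 3.12 in X-3 cells, 2.99, 3.30 and 3.11 in X-1 cells and 1.55, 1.19 and 1.43 in control cells on its brighter probe. Its other probe read -2.95, -2.19 and -2.43 in X-3 cells, -2.38, -2.29 and -2.65 in X-1 cells and -3.62, -4.45 and -4.21 in control cells. Both probes rose, by 1.87 and 1.57 in X-3 and by 1.74 and 1.66 in X-1, and they differ in sign only in X-3 minus X-1 (0.13 and -0.09), which was not called on either.

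**Figure D4:**
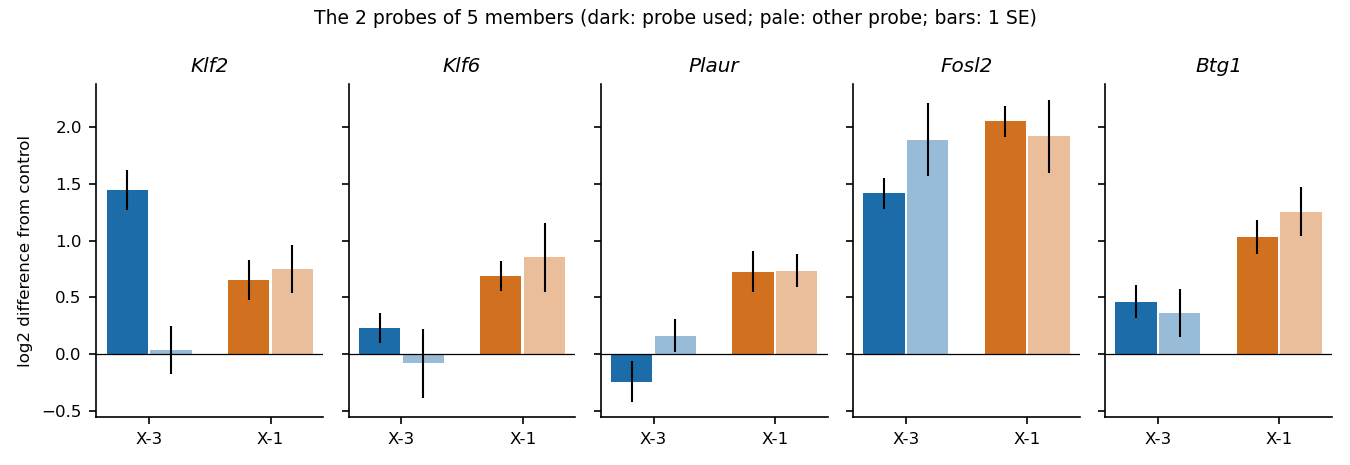
Log2 difference from control in X-3 (blue) and X-1 (orange) for the 2 probes of Klf2, Klf6, Plaur, Fosl2 and Btg1, the used probe dark and the other pale, with bars of 1 standard error. The Klf2 bars in X-3 are 1.45 and 0.03, against 0.65 and 0.75 in X-1.

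Ier3, also called IEX-1, a short-lived regulator of cell survival, was second only to Atf3. It read 3.17, 4.80 and 4.62 in X-3 cells, 4.47, 4.65 and 5.09 in X-1 cells and 0.45, -0.54 and 0.09 in control cells. All treated arrays lay above all control arrays, but X-3 replicate 1 lay below the other treated arrays, and its difference from control on slides 1, 2 and 3 was 2.72, 5.33 and 4.53 in X-3. The fitted difference was 4.19 ± 0.43 in X-3 (adjusted p = 4.59e-05) and 4.73 ± 0.43 in X-1 (adjusted p = 1.84e-05). Without X-3 replicate 1 the Ier3 difference in X-3 was 4.71 (adjusted p = 5.63e-06). Ier5, a regulator of heat shock factor, rose by 1.57 in X-3 and 1.81 in X-1 (adjusted p = 9.57e-05 and 3.33e-05).

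The ZFP36 proteins bind AU-rich elements in mRNAs and speed their decay. Zfp36, which encodes tristetraprolin, read 1.06, 0.68 and 0.85 in X-3 cells, 0.93, 0.96 and 0.72 in X-1 cells and -1.14, -1.52 and -1.42 in control cells, and rose by 2.22 ± 0.15 in X-3 (adjusted p = 4.72e-06) and 2.23 ± 0.15 in X-1 (adjusted p = 3.37e-06). Its second probe, above background on 1 of 3 control arrays, gave 2.82 in X-3 and 3.08 in X-1. Zfp36l2 rose by 1.50 in X-3 and 1.15 in X-1 (adjusted p = 0.000119 and 0.000527), and with spike-in scaling the X-1 call was lost, at 0.01 (adjusted p = 0.978). Zfp36l1 was called in X-1 (0.44, adjusted p = 0.0182), and its difference in X-3 was 0.19 (adjusted p = 0.248). The Zfp36l1 call in X-1 was lost when control replicate 1 was left out, and likewise for replicates 2 and 3 of X-1, and with spike-in scaling its difference was -0.64 in X-3 and -0.50 in X-1. Its other, dimmer probe gave 0.33 in X-3 and 0.52 in X-1, with adjusted p of 0.0471 and 0.00624 in a fit over all probes, so that the X-3 call depends on the probe. Btg1, an antiproliferative protein that recruits the CCR4-NOT deadenylase, read 5.69, 5.49 and 5.54 in X-3 cells, 6.09, 6.15 and 6.19 in X-1 cells and 5.40, 5.03 and 4.90 in control cells. It rose by 0.46 ± 0.15 in X-3 (adjusted p = 0.0232) and 1.03 ± 0.15 in X-1 (adjusted p = 0.000288), and the call in X-3 was lost under 9 of the 20 alternatives that were run, among them those without control replicate 2, control replicate 3 or X-3 replicate 3, and with spike-in scaling its difference was -0.17 in X-3 and 0.30 in X-1, called in neither.

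The remaining members are secreted, surface or signalling products. Cyr61 encodes CCN1, a secreted matrix protein and a known target of YAP and SRF. It read 1.29, 1.70 and 1.86 in X-3 cells, 1.90, 1.99 and 2.08 in X-1 cells and -0.52, -0.43 and -0.34 in control cells, and rose by 2.05 ± 0.16 in X-3 (adjusted p = 8.78e-06) and 2.42 ± 0.16 in X-1 (adjusted p = 2.63e-06). Ctgf, which encodes the related CCN2, differed by -0.13 in X-3 (adjusted p = 0.533) and 0.48 in X-1 (adjusted p = 0.0369). The Ctgf call in X-1 was lost under 13 of the 20 alternatives, among them those that left out any control array or X-1 replicate 3, and with spike-in scaling its difference in X-1 was -0.44. Gdf15, a stress-induced hormone of the TGF-beta family, rose by 1.91 in X-3 and 2.17 in X-1 (adjusted p = 4.58e-06 and 1.76e-06). Rhob, a small GTPase of endosomes, rose by 1.42 in X-3 and 1.56 in X-1 (adjusted p = 4.95e-05 and 2.37e-05). The Rhob call in X-3 was lost with spike-in scaling (0.65, adjusted p = 0.0541).

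Arc, known in neurons as a synaptic regulator, was dim, with 2 of 3 control arrays above background. Its probe was kept only through the treated arrays, so Arc could be called higher but not lower. It read -4.73, -4.93 and -4.90 in X-3 cells, -4.30, -3.65 and -4.08 in X-1 cells and -5.48, -5.44 and -5.82 in control cells, and rose by 0.72 ± 0.18 in X-3 (adjusted p = 0.00856) and 1.57 ± 0.18 in X-1 (adjusted p = 8.85e-05). In X-3 the Arc call was lost with array-median scaling, quantile normalization, normexp background correction, the deposited scores and spike-in scaling, on which its difference was -0.0015. Plaur, the urokinase receptor, read 0.66, 0.13 and 0.03 in X-3 cells, 1.19, 1.45 and 1.09 in X-1 cells and 0.50, 0.58 and 0.47 in control cells. It was called in X-1 and not in X-3: -0.24 ± 0.18 in X-3 (adjusted p = 0.277) and 0.73 ± 0.18 in X-1 (adjusted p = 0.00725). Its other probe read -0.64, -0.77 and -0.64 in X-3 cells, -0.14, -0.00 and -0.18 in X-1 cells and -1.11, -0.66 and -0.76 in control cells, and differed from control by 0.16 in X-3 and 0.74 in X-1. Without X-3 replicate 1, Plaur was called lower in X-3 (-0.44, adjusted p = 0.0185), and with spike-in scaling its difference in X-1 was -0.16.

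X-3 and X-1 were given at the same dose and time, and 1 pair of compounds was compared. Of 34 measured members, 1 (Klf2) was higher in X-3 and 7 (Arc, Atf3, Btg1, Fosl2, Jund, Maff and Plaur) were lower, against 7.19% of all features called higher and 3.66% called lower. The median over members was -0.26, against 0.02 over all features. On all 3 slides taken alone 19 members were lower in X-3. No share over all features was worked out for that count, so it is not read as a result about the members. For Plaur the difference X-3 minus X-1 was -0.97 (95% interval -1.38 to -0.56), with an adjusted p of 0.0135. Maff differed by -0.89 (95% interval -1.29 to -0.49), with an adjusted p of 0.0164. In linear terms X-1 stood 1.96-fold above X-3 for Plaur and 1.86-fold for Maff. The difference was -0.84 (95% interval -1.26 to -0.43) for Arc, -0.68 (95% interval -1.04 to -0.33) for Jund and -0.64 (95% interval -0.94 to -0.33) for Fosl2. It was -0.57 (95% interval -0.90 to -0.24) for Btg1 and -0.48 (95% interval -0.76 to -0.20) for Atf3, with adjusted p between 0.0216 and 0.0419 over these 5. The second Fosl2 probe gave -0.03, and with the mean of both probes Fosl2 was not called, while the second probes of Btg1 and Plaur gave -0.89 and -0.57.

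The 8 calls between the compounds depend on single arrays and on the processing. Of the 20 alternatives, 14 lost the call of Atf3, 14 that of Btg1, 9 that of Fosl2 and 9 that of Jund. The Arc call was lost under 8, those of Klf2 and Maff under 7 each, and that of Plaur under 4. Leaving out replicate 2 of either compound left 0 members called in either direction. Leaving out replicate 3 left 0 higher and 2 lower when it was that of X-3, and 0 higher and 1 lower when it was that of X-1. Without X-3 replicate 1, 1 was higher and 13 were lower, the added ones being Ctgf, Fos, Jun, Klf10, Myc and Nr4a2. Of all 16736 features, 1758 were then higher and 1640 lower. On slide 1, Fos differed between the compounds by 0.03, and on slides 2 and 3 by -1.01 and -0.56. For Maff the values on slides 1, 2 and 3 were -0.28, -1.26 and -1.14.

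The other 26 members were not called between the compounds, and their intervals show what differences the arrays leave possible. Among those centred near 0, the difference was 0.01 (95% interval -0.27 to 0.29) for Srf, 0.04 (95% interval -0.25 to 0.33) for Fosb and 0.07 (95% interval -0.24 to 0.38) for Egr1. For Zfp36 it was -0.01 (95% interval -0.35 to 0.33), and for Fosl1 -0.10 (95% interval -0.44 to 0.24). Wide intervals were left for Ier3, -0.54 (95% interval -1.51 to 0.43), and Mafk, -0.11 (95% interval -0.99 to 0.76). Intervals that lie below 0 although the adjusted p missed the threshold were those of Ctgf, Cyr61, Fos, Jun, Klf10, Klf6 and Nr4a2, of which Ctgf, -0.61 (95% interval -0.99 to -0.23), and Klf6, -0.46 (95% interval -0.75 to -0.17), came nearest (adjusted p = 0.052 and 0.0551). With the replicate number as a block Klf6 passed (adjusted p = 0.0459) and the counts were 1 higher and 8 lower.

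**Figure D5:**
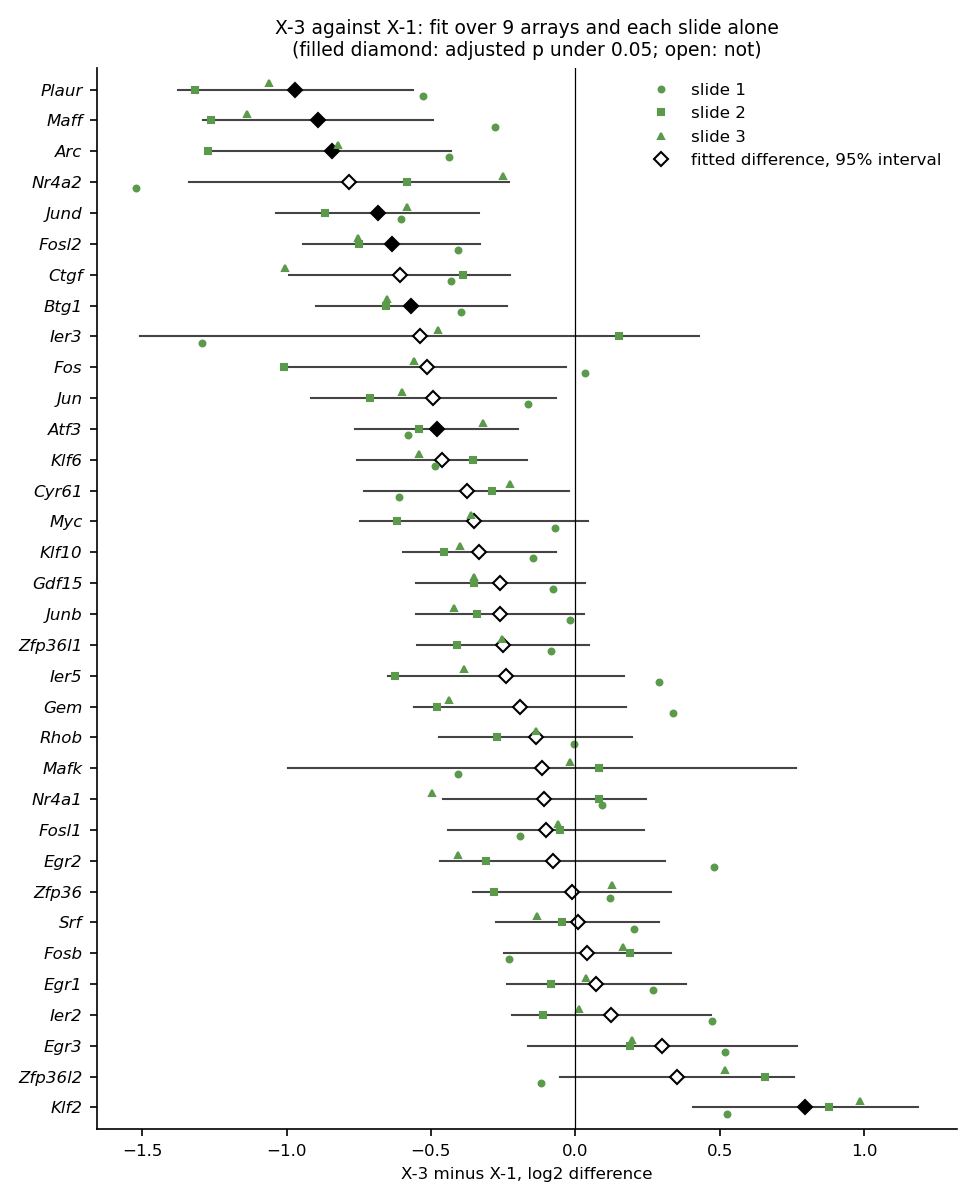
X-3 minus X-1 for each measured member on the log2 scale: diamonds give the fitted difference with its 95% interval, filled where the adjusted p is under 0.05, and green symbols give the difference on each slide alone. Plaur, Maff and Arc lie furthest to the left and Klf2 furthest to the right, and for Maff and Plaur the circle of slide 1 lies nearer 0 than the other slides.

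Other genes of the pathway were counted in lists that, like the members, were drawn up with results of these data known. The counts are to be read against the shares of all features, 29.3% higher and 26.4% lower in X-3 and 28.2% higher and 28.3% lower in X-1, and a list near those shares is not a result about its genes. Of 27 measured further immediate early genes, 20 were higher and 2 lower in X-3, and 21 were higher and 1 lower in X-1, with medians of 1.56 and 2.00. Among the higher ones is Areg, above background on all 3 X-1 arrays and on no X-3 or control array. Areg was kept only through X-1, so it could be called higher there but not lower, at least 3.25-fold. Its call in X-3 compares levels that are all below background. Ptgs2, the inducible cyclooxygenase, differed from control by 4.03 in X-3 and 5.63 in X-1, and Hbegf, an EGF receptor ligand, by 4.66 in X-3 and 5.33 in X-1. Of 8 measured ZFP36 target mRNAs, 8 were higher in both compounds, with medians of 3.61 in X-3 and 3.83 in X-1. Of these, Csf2 and Nos2 were above background on no control array. They were kept only through the treated arrays, so they could be called higher but not lower, and their control levels enter the medians. Ptgs2 and the member Ier3 stand on that list too, and Tnf, Il10, Cxcl2, Ccl3, Il1b and Il23a were not measured. Csf2, the cytokine GM-CSF, was well above background on all treated arrays and on no control array, and was at least 13.3-fold higher in X-3 and at least 13.1-fold higher in X-1 (adjusted p = 8.01e-08 and 6.00e-08). These p-values rest on control levels below background. Nos2 was at least 3.43-fold higher in X-3 and at least 3.08-fold higher in X-1.

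Kinases and cofactors lie upstream of the members. Of 23 measured MAP kinases and effectors, 8 were higher and 5 lower in X-3, and 10 were higher and 4 lower in X-1. Rps6ka2, a ribosomal S6 kinase, differed by -1.47 in X-3 and -2.20 in X-1, and was above background on 1 of 3 X-1 arrays. Mapk8, which encodes JNK1, differed by 0.39 in X-3 and 1.85 in X-1 on its brightest probe, while its 4 probes ranged from -0.13 to 1.86 in X-1. Of 12 measured ternary complex factors, SRF cofactors and CREB proteins, 4 were higher and 5 lower in X-3, and 3 were higher and 4 lower in X-1. Mrtfb, an SRF cofactor, differed by 5.41 in X-3 and 4.72 in X-1, and Crem, a CREB family factor, by 1.37 in X-3 and 1.77 in X-1. The 6 Crem probes ranged from -0.04 to 1.55 in X-3 and from 0.62 to 2.03 in X-1. Elk1 and Myocd were not measured.

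Of 17 further leucine zipper partners, 5 were higher and 5 lower in X-3, and 6 were higher and 4 lower in X-1, which in X-3 is near the shares of all features. Nfil3, a repressor of circadian and immune genes, differed by 2.12 in X-3 and 2.57 in X-1, and Bach2, a small MAF partner that represses, by -2.59 in X-3 and -1.90 in X-1. Among 18 partners and antagonists of the members, 9 were higher and 2 lower in each compound. Cnot7, a deadenylase of the CCR4-NOT complex that BTG proteins recruit, differed by 3.72 in X-3 and 3.84 in X-1 on its brightest probe, and its probes ranged from 0.87 to 3.72 in X-3 and from 1.75 to 3.84 in X-1. Mxi1, a MYC antagonist, differed by 3.36 in X-3 and 3.81 in X-1. Of 13 other KLF and EGR family genes, 7 were higher and 2 lower in X-3, and 7 were higher and 1 lower in X-1. Klf11, a relative of KLF10, differed by 2.06 in X-3 and 2.58 in X-1. Wt1, a zinc-finger factor with an EGR-like DNA-binding domain, was above background on 2 of 3 X-3 arrays, 3 of 3 X-1 arrays and no control array. It was kept only through X-1 and could be called higher there but not lower. Wt1 was at least 1.36-fold higher in X-3 and at least 2.88-fold higher in X-1 (adjusted p = 5.16e-06 and 6.69e-07). The X-3 mean includes an array not above background, and both p-values rest on control levels below it. Klf1, also counted as higher, was above background on 1 of 3 control arrays and was kept only through the treated arrays.

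Of the lists of textbook targets, AP-1 targets had 8 of 19 higher and 3 lower in each compound, with medians of -0.03 in X-3 and 0.35 in X-1. The genes were not all the same. Il11 and Krt18 were called higher and Mmp1a lower in X-3 only, and Gja1 and Ezr higher and Tgfb1 lower in X-1 only. Krt18 was kept only through X-3. Ccnd1, which encodes cyclin D1, differed by -1.90 in X-3 and -2.07 in X-1, and Mmp13, a collagenase, by 1.74 in X-3 and 1.49 in X-1. The list of SRF, MRTF and YAP targets had 3 of 23 genes higher and 8 lower in each compound. It also holds regulators of the YAP pathway, Yap1, Wwtr1 and Tead1, so its counts are not of targets alone. Wwtr1 was among the higher genes and Tead1 among the lower ones in both compounds. Yap1 was called higher and Myh9 lower in X-3 only, and Cnn1 higher and Tpm2 lower in X-1 only. Myl9, a myosin light chain, differed by -2.52 in X-3 and -2.74 in X-1, and Acta2, smooth muscle actin, by -2.14 in X-3 and -2.47 in X-1. The Acta2 probes ranged from -2.87 to -0.49 in X-3 and from -3.002 to -0.45 in X-1. MYC targets had 5 of 16 higher and 4 lower in X-3, and 4 higher and 6 lower in X-1, near the shares of all features in X-3. Cad, an enzyme of pyrimidine synthesis, differed by -1.94 in X-3 and -2.34 in X-1 on its brightest probe, but its 4 probes ranged from -1.94 to 0.67 in X-3 and from -2.34 to 0.29 in X-1. Cdk4, a cell cycle kinase, differed by -0.18 in X-3 and -0.98 in X-1.

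Markers of the labelled cells and of other cell types were counted too, and their part in these results was not tested. Fibroblast or preadipocyte markers had 4 of 12 higher and 3 lower in each compound. That is near the shares of all features, 29.3% higher and 26.4% lower in X-3 and 28.2% and 28.3% in X-1. The intensities of these 12 markers, each divided by the array's 75th percentile and summed, overlapped between the groups. The sums came to 1693 to 1810 in X-3, 1651 to 2002 in X-1 and 1647 to 1931 in control. Ly6a differed by 3.59 in X-3 and 3.39 in X-1, and Pdgfrb by -1.20 in X-3 and -1.42 in X-1. Of 8 mature adipocyte markers, Adipoq, Plin1, Cidec, Lep, Cfd and Retn were not measured, and the summed level of the other two was 2.01 to 2.45 in X-3, 1.16 to 1.69 in X-1 and 10.8 to 11.7 in control. The 2 measured adipocyte markers were lower in both, Plin4 at -2.34 in X-3 and -2.92 in X-1 and Fabp4 at -2.48 in X-3 and -2.84 in X-1. Of 5 measured macrophage markers 3 were higher and 2 lower in both, with Lyz2 at -1.52 in X-3 and -1.57 in X-1 and Csf1r at 1.26 in X-3 and 1.11 in X-1. Their sum was 4.01 to 4.58 in X-3, 3.39 to 3.999 in X-1 and 3.43 to 3.71 in control, and Ptprc, Adgre1 and Itgam were not measured. Epithelial markers had 2 of 3 measured higher in X-3 and 1 in X-1, where Krt8 was 2.39 in X-3 and 1.90 in X-1, and Epcam and Cdh1 were not measured. The other one higher in X-3, Krt18, was above background on 3 of 3 X-3 arrays, no X-1 array and 1 of 3 control arrays. Krt18 was thus kept only through X-3, the group where it is high, and it enters the epithelial sum. The epithelial sum was 0.469 to 0.551 in X-3, 0.315 to 0.397 in X-1 and 0.123 to 0.152 in control. Endothelial markers had 2 of 5 measured, with Pecam1, Cdh5 and Kdr not measured, and Tek at -0.32 in X-3 and -0.47 in X-1. The endothelial sum was 0.129 to 0.135 in X-3, 0.0987 to 0.133 in X-1 and 0.133 to 0.151 in control. Of the myogenic markers Myog and Des were not measured, and Actc1 differed by -1.39 in X-3 and -1.69 in X-1. The myogenic sum was 0.650 to 1.01 in X-3, 0.484 to 1.11 in X-1 and 1.68 to 2.75 in control.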

How the data were processed

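Total RNA was hybridised to 1-colour Agilent arrays, 9 in all. The deposited scanner files hold intensity values (gProcessedSignal) that the authors' Feature Extraction software, version 10.5.1.1 for replicate 1 and 10.7.3.1 for replicates 2 and 3 per the file headers, had corrected for background but not scaled between arrays; the submitters' processing notes name version 9.1. The authors also deposited a table of scores per probe, whose making is not given in the sources used here: it runs linearly with log2 intensity on each array (0.24 to 0.25 score units per log2 unit) and has a median of -0.12 in every column, so its unit and centring stay unknown and it served only as an alternative. Members and gene lists were chosen with earlier results of these data known.

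Spots flagged as outliers were left out, repeated spots were averaged as log2, and each array's 75th percentile over gene spots was subtracted. Of 40960 probes, 25288 were kept, those well above background on each of the 3 arrays in 1 group or more; each of 16736 features was represented by its brightest such probe. limma 3.58.1 (R 4.3.3, lmFit and eBayes, two-sided) was fitted on group over all 9 arrays, with Benjamini-Hochberg adjustment over all features at 0.05. On simulated data for X-1 against control over the 16736 features, 100 features were given a log2 change of 1 and 100 a change of 2. Of these, 55% and 94% were recovered. In the data 4719 features were called higher and 4734 lower in X-1, far more than were changed there. The recovery rates therefore do not carry over to the data. Every member is named. Values on all 9 arrays are given for the 10 members with the largest difference from control, those called between the compounds, those called in neither compound and those whose probes differ in sign; of each other list the 2 called genes with the largest difference in X-1 are named. For a gene above background on no array of a group, any fold given is a lower bound. The bound is the bright group's mean over the dim group's mean. In the dim group each array counts at the higher of the probe's own level and the dimmest level well above background. Coordinates of probes are mm9, as the array design gives them, and promoters are RefSeq on GRCm38.p6.

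Arrays with the same number deviated together from the means of their groups, with correlations of 0.24, 0.11 and 0.23 (X-3 with control, slides 1 to 3) and of 0.52, 0.32 and 0.27 (X-1 with control), so slides pair these arrays; for X-3 with X-1 they came to -0.04, -0.18 and 0.16. The alternatives were other scalings, background corrections, probe filters, the mean of a gene's probes, the slide as a block, a fit of 2 groups and leaving out each array. Background correction with normexp (offset 50) was to use mean spot signals, which were not in the files used for replicates 2 and 3, so median signals were used for all arrays.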

Additional observations from a re-analysis of the deposited data

How the results depend on the processing

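Against control, the count of members called higher stayed within 1.5 times its main value under every alternative run, at 20 to 27 in X-3 and 22 to 30 in X-1. With array-median scaling 1 member was lower in X-3, against 5006 of all 16736 features, and the medians over members were 1.32 in X-3 and 1.56 in X-1. With spike-in scaling on replicates 2 and 3, 6 members were lower in X-3 and 3 in X-1, against 8344 and 9911 of all features. The medians over members were then 0.82 and 1.00. Of the called members, signs turned there for Arc (-0.0015) and Btg1 (-0.17) in X-3, and for Ctgf (-0.44), Klf2 (-0.49), Klf6 (-0.18), Plaur (-0.16) and Zfp36l1 (-0.50) in X-1. Of those not called, they turned for Klf6 (-0.43), Srf (-0.71) and Zfp36l1 (-0.64) in X-3, and for Egr2 (-0.74), Nr4a2 (-0.63) and Srf (-0.81) in X-1. An alternative chosen after seeing the data, the 75th percentile on replicates 2 and 3 alone, gave 2 members lower in X-3, against 5726 of all features. Leaving out each array gave 0 to 2 members lower in X-3, against 3778 to 5089 of all features.

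Counts for X-3 against X-1 moved more often. Members higher, members lower and all features called came to 0, 0 and 494 with array-median scaling, 0, 1 and 577 with no filter on dim probes, and 2, 18 and 6461 on replicates 2 and 3 alone. Normexp correction gave 4 members lower and 1078 features, spike-in scaling 3 lower, the mean of a gene's probes 0 higher, and the fit of these 2 groups alone 0 lower and 759 features. Leaving out each array gave 0 to 2 higher, 0 to 13 lower and 627 to 3398 features. With the slide as a replicate block, the member counts were 26 higher in X-3, 30 higher in X-1, and 1 higher and 8 lower between the compounds. The pairing changed no other call of a member than that of Klf6. The causes were not tested. Dim probes (Arc, Nr4a3, the second Zfp36 probe) lie near the background.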

Other observations

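The Nr4a3 probe, not measured by the rule used here, was well above background on a single array, X-1 replicate 2, where it read -4.51. It read -7.56, -8.48 and -8.32 on the X-3 arrays, -7.66 and -7.68 on the other X-1 arrays and -8.15, -8.54 and -7.96 on the control arrays.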
